A study of Mus musculus with 9 samples.

Results

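Keratins are the intermediate filament proteins of epithelia, and 53 keratin genes had a probe set of their own among the 22180 genes measured that way in the mouse retina. They were chosen by symbol only, as every Krt gene named alone by a probe set on the array, with keratin-associated proteins left out and the brightest probe set taken for each gene. Krt18 had 2 probe sets of its own and every other member had 1. Krt5, the basal partner of Krt14, was not a member because its only probe set is shared with Krt6a, and Krt85 of the hair shaft was not analysed here.

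The retina was profiled on 9 expression arrays (Affymetrix Mouse Gene ST), 3 in each of 3 groups, 7 days after an injection of 1 μL into the vitreous of male C57BL/6 mice (C57BL/6J in the study's methods) that were 6 weeks old when purchased. The control group is labelled as given the vehicle PBS, whereas the methods of the study name an IgG1 isotype antibody, and it is called control here. The other groups were given an antibody against complement component 5 that binds its MG4 domain, at 1 μg or at 10 μg. Each array holds the RNA of a pool of 4 retinas from 4 mice, so the error given is the spread between pools, and whether pools share mice is not clear from the sources.

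A keratin filament is built from pairs of a type I and a type II keratin, and the pairs differ between epithelia. Krt8 and Krt18 pair in simple epithelia, among them the pigment epithelium behind the retina. Krt5 pairs with Krt14 or Krt15 in the basal layer of stratified epithelia, Krt4 with Krt13 in the upper layers of moist epithelia such as the conjunctiva, and Krt1 with Krt10 in the upper epidermis. Krt12 marks the corneal epithelium, Krt6a, Krt6b, Krt16 and Krt17 appear in hair follicles and in activated or wounded epithelium, and a large set of keratins builds the hair. The neural retina is no keratin-rich tissue and holds other intermediate filaments, vimentin and glial fibrillary acidic protein in glia and neurofilaments in neurons.

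The 53 genes lie in the clusters known for the family. All 27 keratin genes that the RefSeq table lists on chromosome 11, which encode type I keratins and the keratin-like Krt222, were members. So were 26 of the 27 it lists on chromosome 15, which are type II keratin genes and Krt18. Of these, Krt74 is annotated as a transcribed pseudogene. Promoter windows of 300 bases, most of them upstream of the annotated start, were held for 35 members, in 36 windows, in RefSeq for GRCm38.p6. Those of Krt13 and of Krt12 are shown because the former keratin stood out in 1 pool and the latter, the corneal keratin, did not. Capitals mark, on either strand, an AP-1 site (TGANTCA) and a CACCC box (CCNCACCC), and on the forward strand a TATA box (TATAAA).
Krt13, chr11:100121517-100121816, minus strand: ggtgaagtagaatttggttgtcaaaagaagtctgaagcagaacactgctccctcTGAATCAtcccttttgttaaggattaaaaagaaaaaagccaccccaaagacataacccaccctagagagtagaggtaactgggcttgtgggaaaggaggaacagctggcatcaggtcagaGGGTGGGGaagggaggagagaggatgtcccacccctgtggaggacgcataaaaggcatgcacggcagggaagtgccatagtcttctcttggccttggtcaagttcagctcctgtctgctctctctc
Krt12, chr11:99422210-99422509, minus strand: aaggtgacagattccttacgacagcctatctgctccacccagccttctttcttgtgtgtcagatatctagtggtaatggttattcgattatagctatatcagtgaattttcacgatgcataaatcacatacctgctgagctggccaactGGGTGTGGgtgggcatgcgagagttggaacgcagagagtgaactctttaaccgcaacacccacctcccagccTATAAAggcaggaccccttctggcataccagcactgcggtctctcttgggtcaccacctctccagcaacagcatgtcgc

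The Krt13 window held TGAATCA from base -196 and GGGTGGGG, the complement of a CACCC box, from base -76, counted from the start. The window of its other annotated start held TGACTCA from -183 and from -34. The Krt12 window held TATAAA from -29 and GGGTGTGG from -101. Over the family, TATAAA was in 17 of 36 windows, against 8.32% of all 32851 windows, and the CACCC box was in 8, against 16.6%. The AP-1 site was in 2, both of Krt13, against 7.81%, and an AP-2 site (GCCNNNGGC, either strand) was in 7, against 16.6%. Of the keratins that were high in that pool, Krt14 was the other one with a window, and it held none of these motifs. A match of letters is a description of the window and not a bound site.

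The pools were not alike in tissue markers, within groups and between them. At 10 μg against control, 0 of 12 skeletal muscle genes and 0 of 11 lens genes had a difference above 0. The count was 9 of 12 for pigment epithelium genes, and the share of all 25341 named probe sets was 55.7%. Gnat1, the rod transducin subunit, lay between 13.45 and 13.55 on the log2 scale in every pool, near the top of the array's range, and the dimmer rod genes Nrl and Rom1 lay between 9.60 and 9.99 and between 10.31 and 10.69. Lens genes were highest in control replicates 1 and 2, with the crystallin Cryaa at 12.93 and 13.20 against 8.02 to 11.79 in the other pools. The 12 skeletal muscle genes were all highest in control replicate 1. The 12 pigment epithelium genes had their highest median deviations from each gene's median in replicates 2 and 3 at 10 μg, 0.51 and 0.61 log2, and the next in control replicate 2, 0.23, though single genes had other orders. Several keratins of stratified epithelia, though not all, were highest in replicate 1 at 10 μg. Group differences and list sums that rest on this pool are given with and without it.

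Most keratins gave a signal in the range of genes that the retina is not known to use. Among 1091 probe sets of olfactory receptors, 95% had a mean below 5.66 log2, and 20 of the 53 keratins had a mean above that limit. Those 20 included Krt8, Krt18 and Krt222, the epidermal Krt1 and Krt10, the corneal Krt12, the mucosal Krt13 and the basal Krt15. The medians of Krt13 and Krt15 over the pools other than replicate 1 at 10 μg, 5.62 and 5.47, were below it. The other members above it were Krt9, Krt24, Krt78, Krt88, 1 keratin of the inner root sheath, 6 of the hair shaft and Krt42. The limit is a description of dim probe sets and does not show that a gene below it is silent.

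Krt15 and Krt4 were bright in replicate 1 at 10 μg and near the olfactory receptor limit or below it in every other pool. Krt15, a keratin of basal cells, had log2 signals of 5.82, 5.68 and 5.11 in the control pools, 5.45, 5.29 and 5.49 at 1 μg, and 9.04, 4.82 and 5.64 at 10 μg. Its signal in that pool was 3.22 log2 above the next highest, which was a control pool. Krt4, the type II keratin of moist stratified epithelia, had 5.47, 5.24 and 5.20 in the control pools, 5.00, 4.89 and 4.90 at 1 μg, and 8.21, 5.29 and 4.61 at 10 μg, a margin of 2.74 log2 over the next pool. For both genes, 1 of the other pools at 10 μg lay within the range of the control pools and 1 lay below it. By their margin over the other 8 pools, Krt15 and Krt4 ranked 1 and 2 among the 22180 genes.

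**Figure D1:**
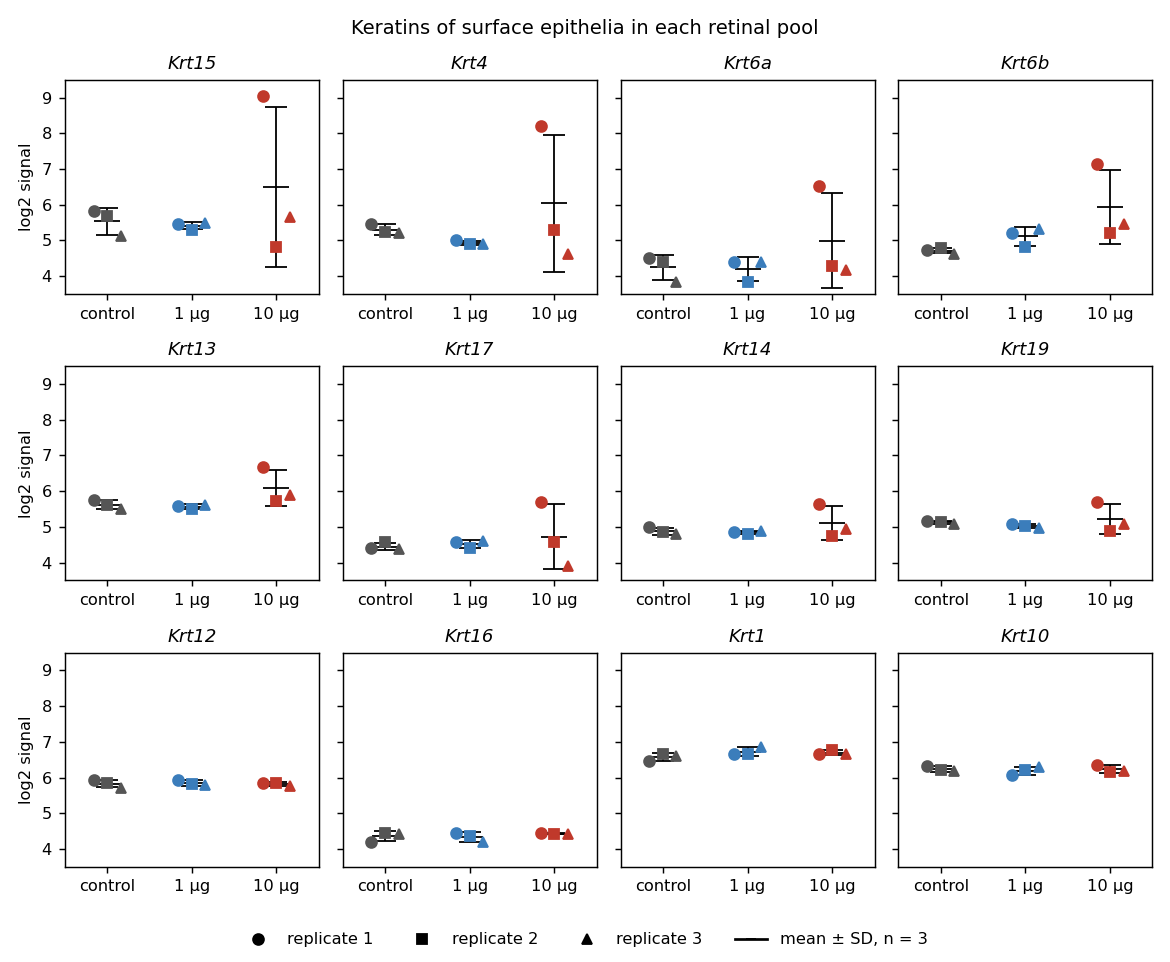
Log2 signal of 12 keratins of surface epithelia in each of the 9 pools, by group (symbols, replicates 1 to 3; black bars, mean ± SD, n = 3). In the first 8 panels replicate 1 at 10 μg lies above every other pool, from Krt15 at 9.04 to Krt14 at 5.63, while it does not for Krt12, Krt16 and Krt1 and does so by only 0.03 log2 for Krt10.

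The activation keratins of the Krt6 pair behaved alike in that pool. Krt6a had 4.51, 4.39 and 3.84 in the control pools, 4.39, 3.83 and 4.39 at 1 μg, and 6.53, 4.27 and 4.17 at 10 μg. Krt6b had 4.73, 4.79 and 4.63 in the control pools, 5.22, 4.80 and 5.31 at 1 μg, and 7.13, 5.22 and 5.45 at 10 μg. The pool exceeded the next one by 2.03 log2 for Krt6a and by 1.68 for Krt6b, whose sequences are close enough that their probes may share signal. The other pools lay below the olfactory receptor limit for both genes, so these margins are differences in signal and not folds in RNA. For Krt6b all treated pools also lay above all control pools, while for Krt6a the groups overlapped.

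The probe set that names Krt5 and Krt6a together gave 6.24, 6.17 and 6.02 in the control pools, 5.41, 5.82 and 5.65 at 1 μg, and 8.33, 5.65 and 6.03 at 10 μg. It was thus also highest in replicate 1 at 10 μg, by 2.09 log2, and its signal cannot be assigned to either keratin. The probe set shared by Krt6b and Gm5478 was not highest there, at 5.75 against 4.98 to 5.83 in the other pools. Of the 2 probe sets that name Krt6b, the one that names it alone therefore showed the pool apart and the shared one did not.

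Further keratins of stratified epithelia exceeded the other pools by less. Krt17, a keratin of hair follicles and activated epithelium, had 5.70 in replicate 1 at 10 μg against 3.91 to 4.59 in the other 8 pools, a margin of 1.11 log2. Krt13, the type I partner of Krt4, had 6.68 against 5.49 to 5.88, a margin of 0.79 log2. Krt14, the basal type I keratin, had 5.63 against 4.74 to 4.99, a margin of 0.65 log2. These genes belong to the basal, mucosal and activation classes, as do the preceding ones. Krt19, found in simple epithelia and in conjunctiva and limbus, had 5.70 against 4.87 to 5.16, a margin of 0.54 log2. The signal of Krt14 was below the olfactory receptor limit of 5.66 in every pool. Those of Krt17 and Krt19 were above it only in replicate 1 at 10 μg, and only just.

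A pool was counted as standing apart for a gene where its signal exceeded the highest of the other 8 by more than 0.5 log2 (1.41-fold). Replicate 1 at 10 μg did so for 8 keratins, 15.1% of the family, against 0.604% of all 25341 named probe sets. These were the keratins given above, Krt4, Krt6a, Krt6b, Krt13, Krt14, Krt15, Krt17 and Krt19. In each of the other 8 pools 0 keratins did so, where the share of all probe sets was 0.43%, 0.0987% and 0.0671% in the control pools, 0.15%, 0.00395% and 0.0434% at 1 μg, and 0.493% and 0.17% in replicates 2 and 3 at 10 μg. In replicate 1 at 10 μg the members nearest to the limit were Krt19 inside it, at 0.54 log2, and Krt80 outside it, at 0.23. In the other pools the largest margin was 0.40, that of Krt71 in replicate 3 at 10 μg. Counted without a margin, replicate 1 at 1 μg was highest for 17 keratins, against 22.4% of all named probe sets. Replicate 1 at 10 μg was so for 13, against 11.8%.

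**Figure D2:**
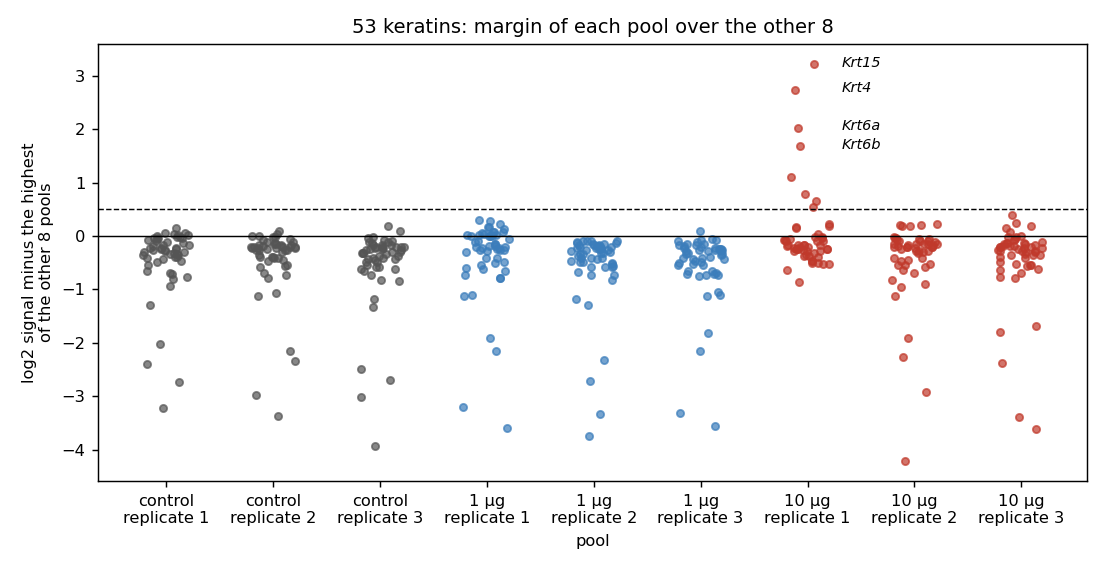
Margin of each pool over the highest of the other 8 pools, in log2, for the 53 keratins (points; colours mark the groups; the dashed line marks 0.5 log2). Replicate 1 at 10 μg holds the 8 points above the dashed line, up to 3.22 for Krt15, and no other pool holds any.

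The high keratins of chromosome 11 lay towards 1 end of the cluster, with level ones between some of them. From Krt222, at place 1 in the order of keratin genes there, to Krt36, at place 19, none was high in that pool. On chromosome 11, Krt13, Krt15 and Krt19 follow each other in the order of keratin genes and all were high in that pool, followed by Krt9, which was not, Krt14, which was, Krt16, which was not, and Krt17, which was. On chromosome 15, Krt6b and Krt6a are neighbours, and Krt5 follows them. Krt4 stands between Krt76 and Krt79, neither of which was highest in that pool.

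The classes differed in how many members were high there. Both measured basal keratins (Krt14 and Krt15) were, as were 2 of 4 mucosal keratins (Krt4 and Krt13) and 3 of 6 activation and appendage-sheath keratins (Krt6a, Krt6b and Krt17). Of the 5 type I keratins of simple and mixed epithelia only Krt19 was, and of the 3 type II keratins none was, though Krt80 and Krt8 had their highest value in that pool. Krt7, a keratin of simple and ductal epithelia, had 5.94 there but 5.98 in control replicate 1, against 5.27 to 5.54 in the remaining pools. None of the 6 epidermal suprabasal, 8 inner root sheath and 15 measured hair shaft keratins was high by that margin.

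Krt12 did not share the pattern. The corneal keratin had 5.92, 5.86 and 5.71 in the control pools, 5.93, 5.81 and 5.78 at 1 μg, and 5.86, 5.86 and 5.76 at 10 μg, with an SD over the 9 pools of 0.07. Krt16, the usual type I partner of the Krt6 keratins, lay between 4.19 and 4.46 in all pools, with 4.44 in replicate 1 at 10 μg. Krt16 was below the olfactory receptor limit in every pool and Krt12 was just above it. Their probe sets may thus not show a change in RNA. The epidermal pair was likewise level, Krt1 between 6.46 and 6.86 and Krt10 between 6.07 and 6.36. Replicate 1 at 10 μg was within the range of the other pools for Krt1, Krt12 and Krt16 and 0.03 log2 above it for Krt10.

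Genes of epithelial junctions and surfaces were high in the same pool. Muc4, a mucin of the ocular surface, had 8.59 in replicate 1 at 10 μg against 5.30 to 6.23 in the other pools, and ranked 5 by the same margin. Of 13 desmosome genes, Dsg3, Dsp and Perp exceeded the other pools by more than 0.5 log2, with Dsg3, a desmoglein of stratified epithelia, at 5.95 against 3.99 to 4.30. Dsp, the plaque protein that binds keratin filaments to desmosomes, had 6.25 against 4.39 to 5.05. The epithelial transcription factors Klf5 and Elf3 had 6.39 against 5.17 to 5.41 and 5.28 against 3.89 to 4.34.

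Some other epithelial markers were level in that pool. Trp63, the basal-cell factor, lay between 5.33 and 5.47 in all pools, Slurp1 of the cornea between 6.09 and 6.27, and the goblet-cell mucin Muc5b between 5.65 and 5.77. The signal of Trp63 was below the olfactory receptor limit in every pool and that of Muc5b was near it. Their level signals may thus not show whether their RNA changed. None of 8 hemidesmosome and 11 cornified envelope genes, the latter markers of keratinised surfaces, exceeded the other pools by more than 0.5 log2. The summed linear signal of the cornified envelope genes was still highest there, at 615 against 497 to 581 in the other pools. Aldh3a1 and Cdh1 of the corneal list were also highest there by less than that margin. They had 6.53 against 5.15 to 6.16 and 6.72 against 5.80 to 6.40. Over whole lists, genes above the other pools by more than 0.5 log2 numbered 2 of 11 for corneal epithelium (Elf3 and Epcam). They numbered 1 of 8 for conjunctival goblet and mucosal genes (Muc4), 3 of 13 for desmosomes and 2 of 9 for keratinocyte transcription factors. The share of all named probe sets in that pool was 0.604%. Elf3 is in both the corneal and the transcription factor list. The signals of Elf3 and Epcam were below the olfactory receptor limit in every pool.

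The summed linear signal of the 11 corneal epithelium genes ran from 659 to 723 in the control pools, from 640 to 671 at 1 μg and from 649.8 to 802 at 10 μg. That of the 8 conjunctival goblet and mucosal genes ran from 381 to 404, from 374 to 405 and from 389 to 754, and that of the 13 desmosome genes from 695 to 727, from 690.1 to 732 and from 696 to 920.3. In each of these lists the highest sum was that of replicate 1 at 10 μg. The other pools at 10 μg had sums of 649.8 and 678 for corneal epithelium, 389 and 396 for goblet and mucosal genes, and 696 and 718 for desmosomes. The part of such epithelium in the keratin values was not tested. In pooled tissue, more cells of a type and more RNA per cell cannot be told apart.

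**Figure D3:**
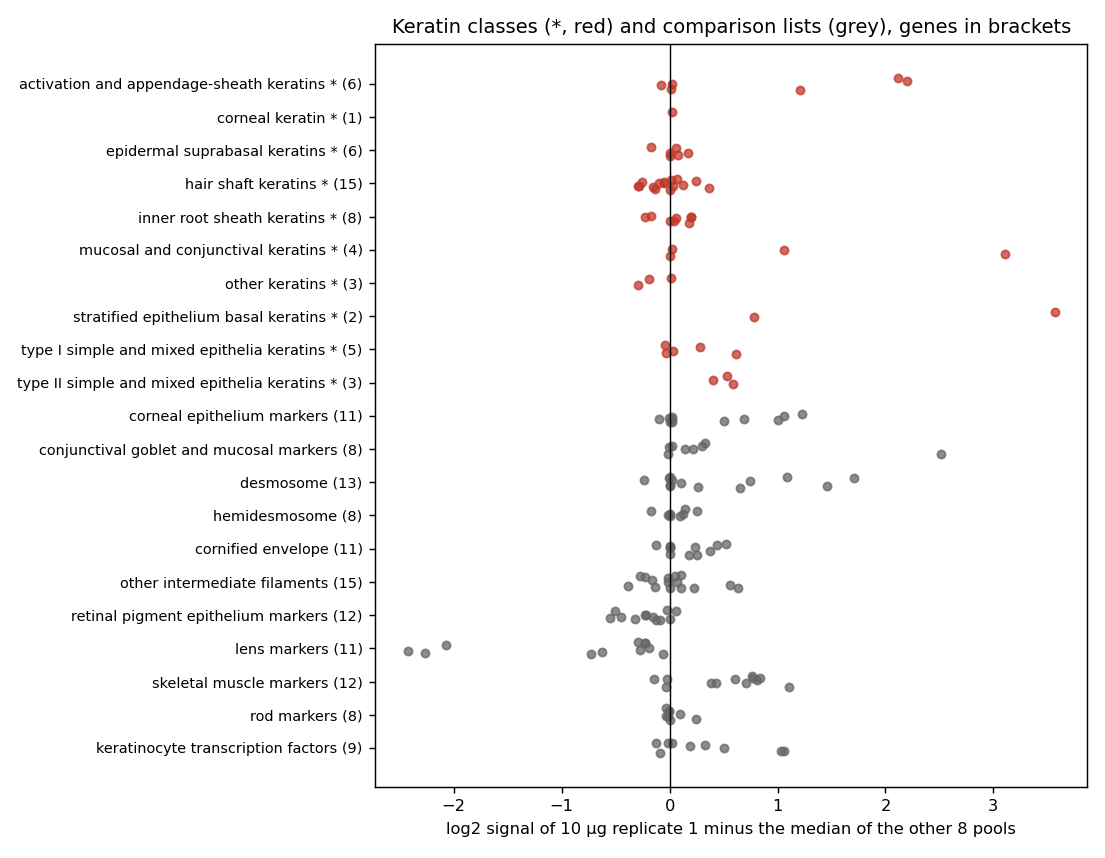
Log2 signal of replicate 1 at 10 μg minus the median of the other 8 pools, 1 point per gene, for the keratin classes (red) and the comparison lists (grey), with the number of genes in brackets. Basal, mucosal and activation keratins reach up to 3.57 (Krt15), the corneal keratin lies at 0.02, and rod genes lie near 0.

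Skeletal muscle and lens genes were highest in control pools and not in the pool with the high keratins. The 12 muscle genes had their highest median deviation from each gene's median, 1.60 log2, in control replicate 1, where no keratin stood apart. The next highest was that of replicate 1 at 10 μg, 0.51, followed by 0.22 in replicate 3 at 10 μg. The 11 lens genes had median deviations of 0.83 and 1.35 in control replicates 1 and 2 and of -0.26 in replicate 1 at 10 μg. The 8 measured rod genes had 0.00 in that pool. The 15 other intermediate filament genes, among them vimentin, also had a median deviation of 0.00 there.

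Krt8, Krt18 and Krt222 showed no pool apart. Krt8 had 7.10, 7.08 and 7.08 in the control pools, 7.08, 7.08 and 6.83 at 1 μg, and 7.49, 7.30 and 7.15 at 10 μg, so that all pools at 10 μg lay above all others. Krt18, its partner, had 7.53, 7.67 and 7.36 in the control pools, 7.33, 7.71 and 7.72 at 1 μg, and 7.66, 7.78 and 7.93 at 10 μg, with overlapping groups. Its dimmer probe set, with a mean of 5.64, gave 5.61, 5.50 and 5.53 in the control pools, 5.35, 5.71 and 5.75 at 1 μg, and 5.78, 5.50 and 6.07 at 10 μg. Both probe sets of Krt18 were highest in replicate 3 at 10 μg and lowest in replicate 1 at 1 μg. Krt222 had 7.60, 7.76 and 7.80 in the control pools, 7.88, 7.87 and 7.95 at 1 μg, and 7.64, 7.75 and 8.03 at 10 μg, so that all pools at 1 μg lay above the control pools and those at 10 μg overlapped them.

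Pigment epithelium genes varied between pools beside these keratins. Rpe65, the isomerase of the visual cycle, had 7.94, 8.19 and 7.85 in the control pools, 7.76, 8.52 and 8.14 at 1 μg, and 8.01, 9.01 and 8.83 at 10 μg. Like Krt18, it was lowest in replicate 1 at 1 μg and high in replicates 2 and 3 at 10 μg. Single genes of the list had other orders. Dct was lowest in control replicate 1 (6.78) and Tyrp1 in replicate 2 at 1 μg (6.36). The summed signal of the 12 pigment epithelium genes ran from 3133 to 4400.1 in the control pools, from 3075 to 4279 at 1 μg and from 3218 to 5710.4 at 10 μg. Krt8 was highest in replicate 1 at 10 μg, where the median deviation of the 12 genes was -0.12. The part of pigment epithelium in the values of Krt8 and Krt18 was not tested.

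**Figure D4:**
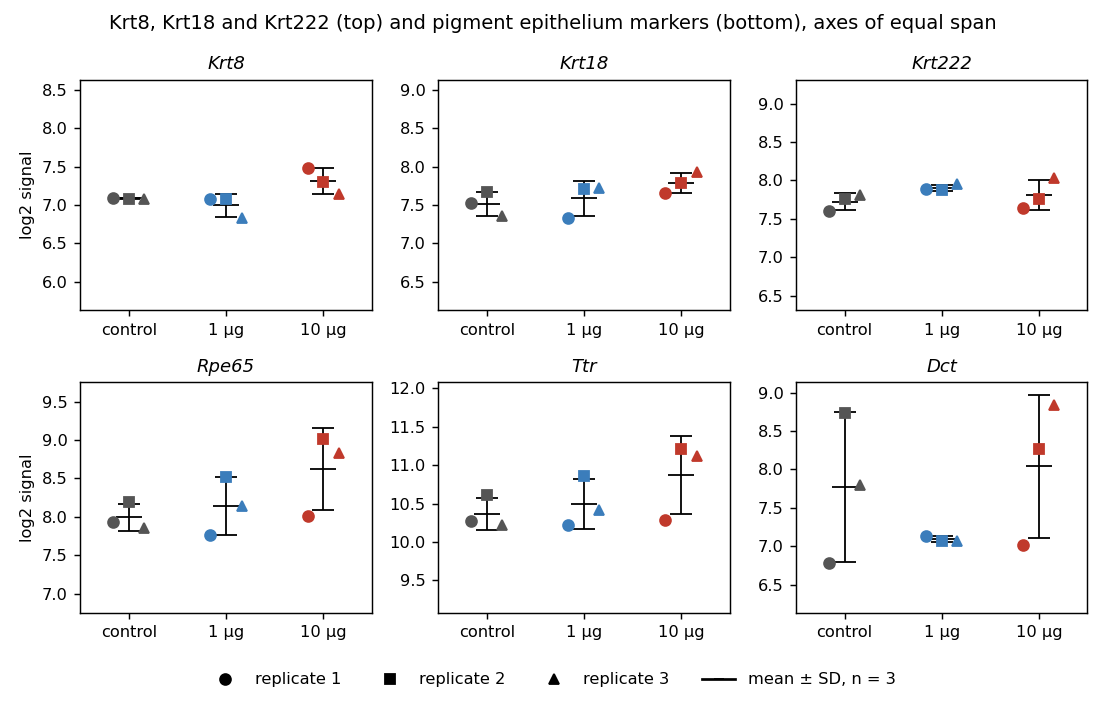
Log2 signal of Krt8, Krt18 and Krt222 and of the pigment epithelium genes Rpe65, Ttr and Dct in each pool, on axes of equal span (symbols, replicates 1 to 3; black bars, mean ± SD, n = 3). Rpe65 reaches 9.01 and 8.83 in replicates 2 and 3 at 10 μg, and Krt18 reaches 7.78 and 7.93 there. Dct reaches 8.27 and 8.83 there and 8.73 in control replicate 2.

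The comparison of 10 μg with control asks whether a dose above the therapeutic one alters the normal retina. No keratin passed the adjusted threshold of 0.05 in it (0 of 53; limma, Benjamini-Hochberg over 25341 named probe sets), where 0.0197% of all probe sets did, and the smallest adjusted p of a keratin was 0.147 in limma. The median difference over the keratins was 0.06 log2, against 0.02 over all named probe sets, and 30 of the 53 differences were above 0, against 55.7% of all. At an unadjusted p below 0.05, 3 keratins were higher (Krt6b, Krt27 and Krt31) against 11.4% of all probe sets, and 0 were lower against 5.99%. The shares of keratins, 5.66% and 0%, rest on few genes and are a description only.

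The largest differences at 10 μg came with the largest errors. Krt6b was at 5.93 ± 1.04 (SD, n = 3) against 4.72 ± 0.08 in control, a log2 difference of 1.22 (standard error 0.430, 95% confidence interval 0.24 to 2.20, adjusted p = 0.202 in limma). It was the only keratin over 2-fold at an unadjusted p below 0.05, where 1.13% of all probe sets were. The probe set shared by Krt6b and Gm5478 differed by only 0.03 (-0.44 to 0.51). Krt15 was at 6.50 ± 2.24 against 5.54 ± 0.37 (SD, n = 3 each), a difference of 0.97 with an interval of -1.09 to 3.02. For Krt4 the difference was 0.73 with an interval of -1.01 to 2.47, and for Krt6a it was 0.75 with an interval of -0.54 to 2.03. The intervals of Krt15, Krt4 and Krt6a include 0, and that of Krt6b does not. All of them include changes well over 2-fold.

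Without replicate 1 at 10 μg, several of these differences changed sign. Krt15 was then at -0.30 log2 (95% confidence interval -0.94 to 0.34), Krt4 at -0.36 (-0.79 to 0.08), Krt6a at -0.03 (-0.58 to 0.53) and Krt17 at -0.21 (-0.63 to 0.22). Krt14 moved from 0.23 to -0.04 and Krt19 from 0.09 to -0.15, while Krt13 kept its sign, at 0.18 after 0.47. Krt6b kept it too, at 0.62 (0.26 to 0.98, adjusted p = 0.112 in limma). The median over the keratins was then 0.02 log2, 27 of 53 differences were above 0 against 55.3% of all probe sets, and 0 keratins passed the adjusted threshold. At an unadjusted p below 0.05 there were 5 keratins, against 18.2% of all probe sets in that fit.

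**Figure D5:**
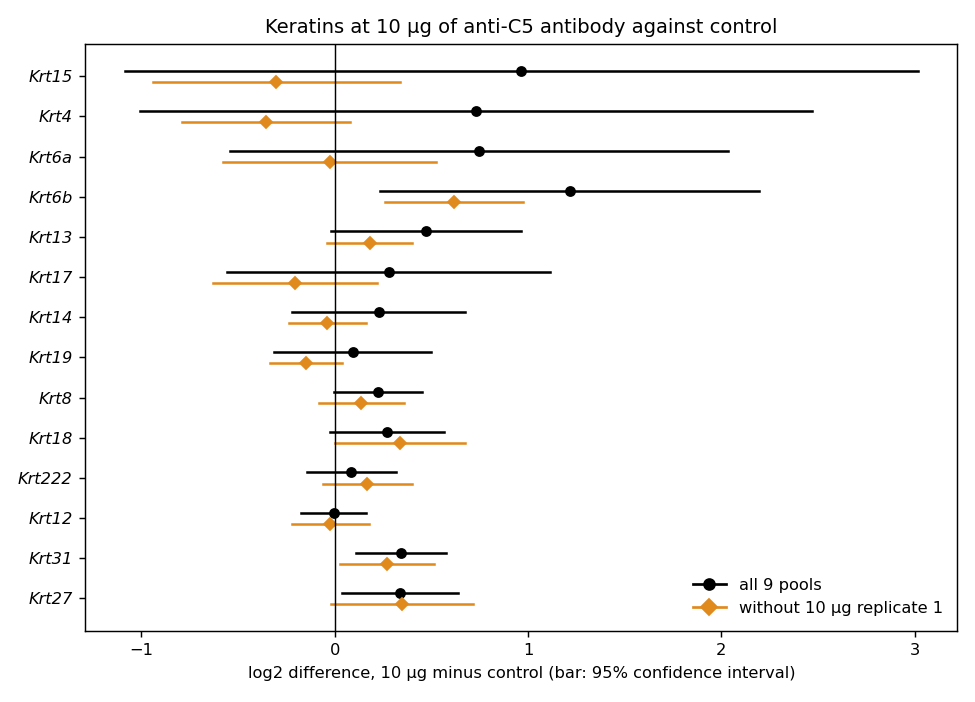
Log2 difference between 10 μg and control with its 95% confidence interval for 14 keratins, from all 9 pools (black circles) and without replicate 1 at 10 μg (orange diamonds). Krt15 goes from 0.97 to -0.30 and Krt4 from 0.73 to -0.36, while Krt8, Krt18 and Krt31 keep a value above 0.

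For some keratins the groups at 10 μg and in control did not overlap. All pools at 10 μg lay above all control pools for 5 keratins (Krt6b, Krt8, Krt27, Krt31 and Krt75), against 14.3% of all probe sets, and below them for 1, Krt33a, against 8.51%. Krt31, of the hair shaft, had 4.38, 4.32 and 4.44 in the control pools and 4.87, 4.73 and 4.58 at 10 μg, a difference of 0.34 (standard error 0.101, adjusted p = 0.147 in limma). Its signal was below the olfactory receptor limit in every pool. Krt27, of the inner root sheath, had a difference of 0.34 (adjusted p = 0.235 in limma) and was also below that limit in every pool. Krt8 had a difference of 0.22 (95% confidence interval -0.0040 to 0.45, adjusted p = 0.294 in limma) and of 0.14 (-0.08 to 0.36) without replicate 1 at 10 μg. That of Krt18 was 0.27 (-0.02 to 0.57), and 0.34 without that pool.

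At 1 μg, the dose used as therapeutic in the study, 0 of 53 keratins passed, as did 0% of all probe sets, and the smallest adjusted p of a keratin was 0.506 in limma. The median difference was -0.03 log2 against 0.04 over all named probe sets, and 22 of the 53 differences were above 0, against 62.8% of all. At an unadjusted p below 0.05, 0 keratins were higher against 7.2% of all, and 2 were lower, Krt25 and Krt82, against 1.84%. No keratin was over 2-fold at such a p, against 0.679% of all. The signals of Krt25, of the inner root sheath, were 5.17, 4.96 and 4.96 in the control pools and 4.76, 4.59 and 4.62 at 1 μg. The groups did not overlap, and the difference was -0.37 (95% confidence interval -0.57 to -0.17, adjusted p = 0.506 in limma).

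Krt82, of the hair shaft, was at -0.26 (-0.48 to -0.04, adjusted p = 0.523 in limma), with pools of 5.68, 5.71 and 5.42 at 1 μg against 5.94, 5.92 and 5.74 in control. The groups were also apart and lower at 1 μg for Krt4, at -0.37 (-2.11 to 1.36), so that they did not overlap for 3 keratins on the lower side, against 2.45% of all probe sets. They were apart and higher for 2, Krt6b at 0.39 and Krt222 at 0.18, against 12.5%. The wide interval of Krt4 comes from a spread estimated over all 9 pools, replicate 1 at 10 μg included. Without that pool its interval was -0.76 to 0.02, and the unadjusted p of Krt6b fell below 0.05, at 0.0221 (limma, adjusted p = 0.518).

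Between the doses, 0 of 53 keratins passed, as did 0% of all probe sets, and the smallest adjusted p of a keratin was 0.414 in limma. The median difference of 10 μg from 1 μg was 0.08 log2 against -0.01 over all named probe sets, and it was 0.0049 without replicate 1 at 10 μg. Of the 53 differences 32 were above 0, against 46.9% of all, and 29 without that pool, against 47.4%. At an unadjusted p below 0.05, 4 keratins were higher at 10 μg (Krt8, Krt13, Krt25 and Krt71) against 3.93% of all, and 1 was lower, Krt81, against 6.45%, with 0 over 2-fold at such a p, against 0.0158%. Krt8 differed by 0.31 (95% confidence interval 0.09 to 0.54, adjusted p = 0.425 in limma) and by 0.23 without replicate 1 at 10 μg (adjusted p = 0.448 in limma). Krt25 differed by 0.43, its pools at 10 μg being 5.15, 4.96 and 5.15, close to the control pools.

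Groups were apart and higher at 10 μg than at 1 μg for 6 keratins (Krt8, Krt13, Krt25, Krt27, Krt71 and Krt88), against 4.48% of all probe sets, and lower for 0, against 9.44%. Krt13 had 5.58, 5.51 and 5.62 at 1 μg and 6.68, 5.71 and 5.88 at 10 μg, a difference of 0.52 and of 0.23 without replicate 1. Krt71, of the inner root sheath, had 5.04, 4.96 and 4.58 at 1 μg and 5.18, 5.17 and 5.69 at 10 μg, a difference of 0.49. Krt81, of the hair shaft, had 6.57 in 6 of the 9 pools and differed by -0.17. The comparisons share their control or treated pools, so their values for a keratin are not independent of each other.

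The spread between pools was wider for keratins than for most probe sets and narrowed without replicate 1 at 10 μg. The median SD over the 9 pools was 0.182 log2 for the 53 keratins and 0.132 for all named probe sets. Without that pool it was 0.153 for the keratins and 0.130 for all probe sets. The largest SD of a keratin went from 1.25 (Krt15) to 0.329. At the other end Krt39, of the hair shaft, had an SD of 0.03. The median standard error of a difference between groups was 0.119 log2 for the keratins and 0.093 for all named probe sets.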

How the data were processed

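Retinal RNA of 9 pools was measured on 1-colour expression arrays in 3 groups of 3. The authors deposited log2 expression values made from the scanned images by RMA (background correction, quantile normalisation and median polish) in Affymetrix Expression Console 1.1, with no genome build given in the sources used here. Array values carry no read depth, so the number of arrays limits the precision.

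Of 41345 probe sets, 23521 were annotated to 1 gene, 1820 to several and 16004 to none in the platform table. The 3 groups entered a single limma fit of the 25341 named probe sets with no block (limma 3.58.1, R 4.3.3), with Benjamini-Hochberg adjustment within each of the 3 comparisons (threshold 0.05) and 95% confidence intervals from the moderated fit. Folds are differences on the log2 scale turned to ratios. Signals of different probe sets were not compared as amounts. Gene order, chromosomes and promoter windows came from RefSeq tables of GRCm38.p6, and figures were drawn with matplotlib 3.10.9. The fit was tested on simulated data.

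Keratins named in the text were those of ocular surface, epidermis and simple epithelia, those with the smallest p in each comparison, the widest spread or the brightest signal. Genes of the comparison lists were named by smallest p and widest spread. Some were named for their value in 1 pool after it was seen (Trp63, Slurp1, Muc5b, Klf5, Elf3, Epcam, Aldh3a1, Cdh1, Gnat1, Nrl, Rom1, Perp). Keratins named for their place in the family after their values were seen were Krt9, Krt24, Krt33a, Krt39, Krt42, Krt75, Krt76, Krt78, Krt79, Krt80 and Krt88. The keratins, their classes and the lists were chosen with earlier results of these data known. Alternatives were the replicate number as a block, dim probe sets left out, the groups compared only, cyclic loess, median centring, array weights, an intensity trend, all probe sets, the mean of a gene's probe sets, and leaving out every array once. The labels do not say whether pools came from separate experiments, so p-values measure the spread between these pools only.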

Additional observations from a re-analysis of the deposited data

How the results depend on the processing

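The count of keratins past the adjusted threshold was 0 in all 3 comparisons under each of 9 alternatives and without each of 9 pools. The count over all named probe sets at 10 μg, 5, was 0 with the replicate number as a block, 366 without dim probe sets, 120 after cyclic loess, 288 after median centring, 1 with array weights, 494 with an intensity trend and 2 over all probe sets, and 0 to 328 without single pools (0 without control replicates 1 or 2 or replicates 1 or 2 at 10 μg, 328 without replicate 3 at 10 μg). At 1 μg that count, 0, was 0 to 2 without single pools (2 without control replicate 3). Same-numbered pools had correlations of deviations of -0.20 to 0.13, and differently numbered pools of different groups had -0.18 to 0.32. These ranges did not set same-numbered pools apart. No keratin passed with or without the block, so the keratin calls cannot show whether the numbers pair the pools.

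Krt12 at 10 μg (-0.01) became 0.0291 after cyclic loess, 0.0372 after median centring and 0.0104 with array weights. Without single pools it ran from -0.0641 to 0.0387, Krt15 from -0.30 to 1.80, Krt4 from -0.36 to 1.45, Krt6a from -0.0264 to 1.16, Krt17 from -0.21 to 0.69, Krt14 from -0.0380 to 0.41, Krt19 from -0.15 to 0.27 and Krt222 from -0.0228 to 0.17. At 1 μg Krt15 ran from -0.34 to 0.0132, Krt18 from -0.0135 to 0.20 and Krt12 from -0.0448 to 0.0579, and between the doses Krt15 ran from -0.18 to 1.93. Replicate 1 at 10 μg was the pool that turned Krt4, Krt6a, Krt14, Krt15, Krt17 and Krt19 at 10 μg. Replicate 3 at 10 μg turned Krt222, control replicate 1 turned Krt15 at 1 μg, control replicate 3 and replicate 3 at 1 μg turned Krt18, and Krt12 turned without control replicates 1, 2 or 3, replicate 1 at 1 μg or replicate 3 at 10 μg. Signals near or below the olfactory receptor limit may hold little above background, which limits most hair keratins here.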
